A study of Mus musculus with 8 samples.

Results

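The platelet-derived growth factors (PDGFs) and their receptors were examined in injured carotid arteries of mice with and without miR-126. The family comprises 6 genes here, the ligand genes Pdgfa, Pdgfb, Pdgfc and Pdgfd and the receptor genes Pdgfra and Pdgfrb, and its members are all array probes that the scanner files name for these genes. They were 8 of the 55681 noncontrol probes on the array. Both groups were female ApoE-/- mice, which lack apolipoprotein E, aged 6 weeks, of mixed genetic background and on a western-type diet, and both had wire injury of the carotid artery 14 days before the tissue was taken. They differed by genotype at miR-126, with 4 miR-126+/+/ApoE-/- mice and 4 miR-126-/-/ApoE-/- mice, and each mouse had 1 array. No uninjured artery was analysed here, so the values show the injured wall only.

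PDGFs are secreted dimers that bind receptor tyrosine kinases on mesenchymal cells. PDGF-B from platelets and endothelium drives migration and proliferation of smooth muscle cells, and recruits pericytes through the beta receptor, while PDGF-A and PDGF-C act mainly through the alpha receptor of fibroblast-like cells. After wire injury, PDGF signalling is a known stimulus of neointima growth. miR-126 is a microRNA of endothelial cells and lies in an intron of Egfl7. In a whole artery, fewer cells of a type and less RNA per cell cannot be told apart.

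The microRNA that separates the groups is shown first, because the comparison turns on its absence. Its mature 3p strand comes from RefSeq (GRCm38.p6, chr2:26591402-26591423, plus strand) and carries its seed, bases 2 to 8, in capitals. The array probe of Pdgfd, the only one for this ligand, is shown as an example of the member probes. It is printed in lower case as the scanner files give it (mm9, chr9:6376926-6376985, plus strand).
miR-126a-3p: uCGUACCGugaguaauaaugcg
Pdgfd probe: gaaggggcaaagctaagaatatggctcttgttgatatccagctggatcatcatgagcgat
The letters CGGTACG, the complement of that seed, were searched on the transcript strand of each probe. They stood in 0 of the 8 PDGF probes and in 0.0198% of all 55681 probes, each of 60 bases, which says only that these letters are not in these windows.

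Loss of miR-126 was not accompanied by a detectable change of any PDGF ligand or receptor transcript. In limma, 0 of the 8 probes passed an adjusted p of 0.05 and 0 had an unadjusted p under 0.05. The same fit called 0.0401% of the 32430 probes tested (6 up and 7 down in miR-126-/- arteries), and 9.9% had an unadjusted p under 0.05. Of the PDGF probes, 6 had a higher and 2 a lower mean in miR-126-/- arteries, and the genotypes overlapped for all 8. The genotypes did not overlap for 6.05% of all probes tested. In this fit the 95% interval of the difference stayed inside a 2-fold change in either direction for all 8 PDGF probes, as it did for 82.3% of all probes tested. A p over 0.05 does not show equal levels, and with 4 mice a group each difference is known only to within its interval.

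Values are given as log2 signals relative to the 75th percentile of the same array, so that 0 is that percentile, and a difference is miR-126-/- minus miR-126+/+. Signals of different probes depend on the probe and were not set against each other. The number of arrays limits the precision. All 8 PDGF probes were well above background on all 8 arrays, and all passed the filter on dim probes.

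**Figure D1:**
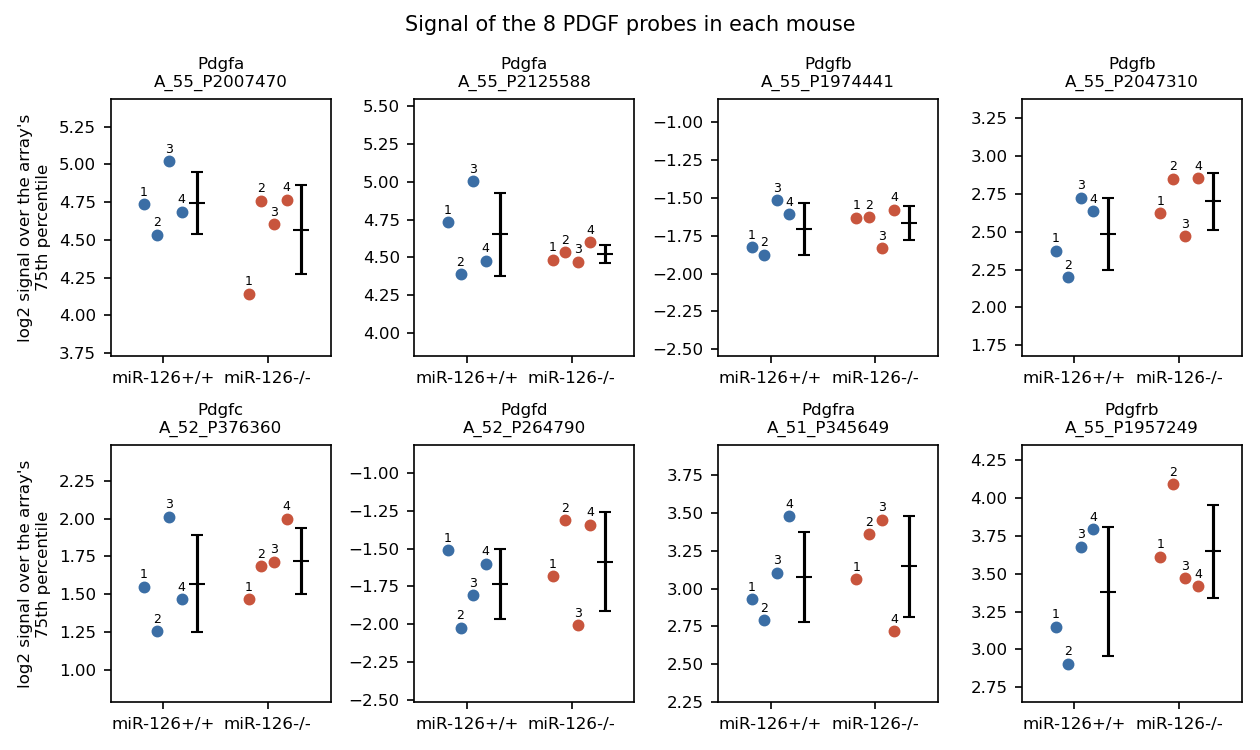
Log2 signal over the array's 75th percentile (vertical axis, a span of equal height in each panel) for each of the 8 PDGF probes, by genotype. Points are single mice numbered by replicate, and black bars are the mean and SD of 4 mice. The genotypes overlap in every panel, and mouse miR-126+/+ 2 is the lowest of its genotype in all 8.

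Pdgfa encodes the A chain, a ligand that acts through the alpha receptor. Its probe A_55_P2007470 (mm9, chr5:139452934-139452993, minus strand) gave 4.74, 4.53, 5.02 and 4.69 in miR-126+/+ mice 1 to 4 and 4.14, 4.76, 4.60 and 4.77 in miR-126-/- mice 1 to 4. Mouse miR-126-/- 1 was the lowest of all 8, and the other 3 miR-126-/- values lay within the miR-126+/+ range. The means were 4.57 ± 0.29 in miR-126-/- and 4.74 ± 0.20 in miR-126+/+ arteries (SD, n = 4 each), a difference of -0.18 ± 0.17 (SE; 95% interval -0.57 to 0.21; limma adjusted p = 0.789).

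The second Pdgfa probe, A_55_P2125588 (mm9, chr5:139452925-139452984, minus strand), shares 51 of its 60 bases with the first. It gave 4.73, 4.39, 5.01 and 4.48 in miR-126+/+ mice and 4.48, 4.53, 4.47 and 4.60 in miR-126-/- mice. The 4 miR-126-/- values were close together inside the miR-126+/+ range. The difference was -0.13 ± 0.14 (SE; 95% interval -0.45 to 0.20; limma adjusted p = 0.816). Mouse miR-126-/- 1, the lowest of all by the first probe, lay between the other miR-126-/- mice by the second, although both probes cover nearly the same bases. The SD among miR-126-/- mice was 0.29 by the first probe and 0.059 by the second.

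Pdgfb encodes the B chain, the ligand of both receptors that endothelium and platelets release. Its brighter probe A_55_P2047310 (mm9, chr15:79826376-79826435, minus strand) gave 2.38, 2.20, 2.73 and 2.64 in miR-126+/+ mice and 2.62, 2.85, 2.47 and 2.86 in miR-126-/- mice. Mice miR-126-/- 2 and 4 lay above all miR-126+/+ mice, and the other 2 lay among them. The means were 2.70 ± 0.19 and 2.49 ± 0.24 (SD, n = 4 each), a difference of 0.21 ± 0.15 (SE; 95% interval -0.13 to 0.56; limma adjusted p = 0.710). The unadjusted p of 0.188 was the smallest among the PDGF probes.

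The dimmer Pdgfb probe, A_55_P1974441 (mm9, chr15:79827438-79827497, minus strand), lies closer to the 5′ end of the same transcript and shares 0 bases with the other. It gave -1.83, -1.87, -1.51 and -1.61 in miR-126+/+ mice and -1.63, -1.63, -1.83 and -1.58 in miR-126-/- mice. The difference was 0.04 ± 0.11 (SE; 95% interval -0.22 to 0.30; limma adjusted p = 0.941), the narrowest interval of the family. Within a genotype both Pdgfb probes had mouse miR-126+/+ 2 and mouse miR-126-/- 3 at the bottom and mice miR-126+/+ 3 and miR-126-/- 4 at the top.

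Pdgfc and Pdgfd encode the later-found ligands, which carry a CUB domain and are activated only when a protease removes it. The Pdgfc probe A_52_P376360 (mm9, chr3:81017572-81017631, plus strand) gave 1.55, 1.26, 2.01 and 1.47 in miR-126+/+ mice and 1.47, 1.69, 1.72 and 2.0 in miR-126-/- mice. The miR-126-/- values all lay inside the miR-126+/+ range, with a difference of 0.15 ± 0.18 (SE; 95% interval -0.27 to 0.57; limma adjusted p = 0.842). The Pdgfd probe gave -1.51, -2.02, -1.81 and -1.60 in miR-126+/+ mice and -1.68, -1.31, -2.01 and -1.34 in miR-126-/- mice. Mice miR-126-/- 2 and 4 were the highest of all 8, while mouse miR-126-/- 3 was nearly as low as miR-126+/+ 2, the lowest. The Pdgfd difference was 0.15 ± 0.19 (SE; 95% interval -0.28 to 0.58; limma adjusted p = 0.844).

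Pdgfra encodes the alpha receptor, a marker of fibroblasts and adipocyte progenitors. Its probe A_51_P345649 (mm9, chr5:75593888-75593947, plus strand) was printed in 10 spots on each array, and its value is their mean. It gave 2.93, 2.79, 3.11 and 3.48 in miR-126+/+ mice and 3.06, 3.36, 3.46 and 2.72 in miR-126-/- mice. Mouse miR-126-/- 4 was the lowest of all 8 and mouse miR-126+/+ 4 the highest. The means were 3.15 ± 0.33 and 3.08 ± 0.30 (SD, n = 4 each), a difference of 0.07 ± 0.21 (SE; 95% interval -0.40 to 0.55; limma adjusted p = 0.938).

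The repeated Pdgfra spots show the spot noise within an array. They share 1 RNA, labelling and hybridization, so they do not measure the error between arrays. The SD over the 10 spots of an array ran from 0.077 to 0.18, and the SD between the means of the 8 arrays, each from a different mouse, was 0.30. On 7 of the 8 arrays the lowest spot was the same one, printed in the last grid column.

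**Figure D2:**
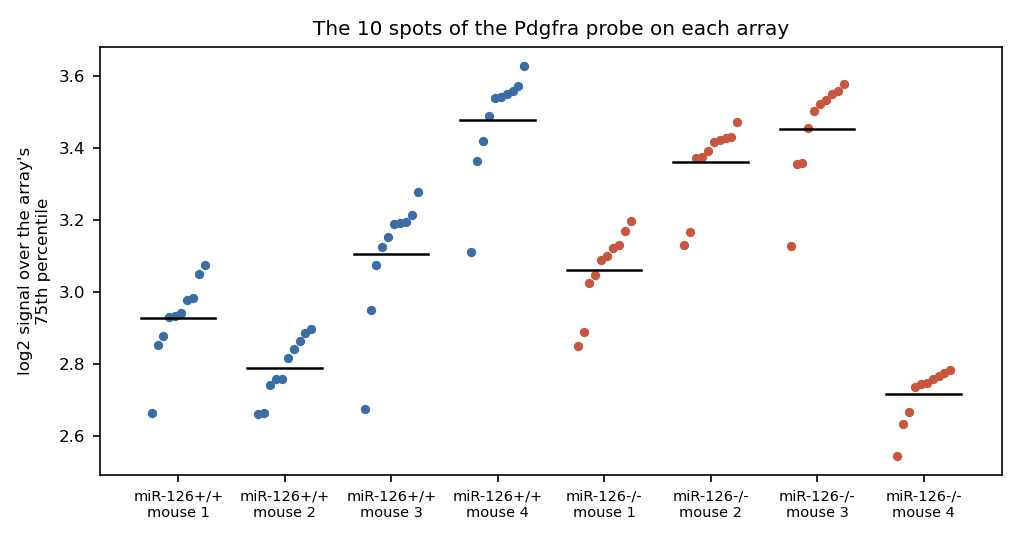
Log2 signal over the array's 75th percentile (vertical axis) of the 10 spots of the Pdgfra probe on each of the 8 arrays (horizontal axis), sorted within an array, with the array mean as a black line. Array means run from 2.72 in miR-126-/- mouse 4 to 3.48 in miR-126+/+ mouse 4, and the genotypes are interleaved.

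Pdgfrb encodes the beta receptor of smooth muscle cells and pericytes. Its single probe, A_55_P1957249 on chromosome 18, gave 3.15, 2.91, 3.68 and 3.80 in miR-126+/+ mice and 3.61, 4.09, 3.47 and 3.42 in miR-126-/- mice. Mouse miR-126-/- 2 was the highest of all 8, and mice miR-126+/+ 1 and 2 were below every miR-126-/- mouse. The means were 3.65 ± 0.31 and 3.38 ± 0.42 (SD, n = 4 each). The difference of 0.27 ± 0.24 (SE; 95% interval -0.28 to 0.81; limma adjusted p = 0.773) was the largest of the family in size and had the widest interval.

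The Pdgfrb spot lay at the edge of a local dim area of array miR-126-/- 4, where 87 of the 90 bright spots that were at least 2 log2 units below all other arrays were found. Bright spots around it on that array were shifted by a median of -0.17 against the other arrays. Without the spots of that area the Pdgfrb difference was 0.34 (limma adjusted p = 0.742). The other PDGF spots lay outside it.

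**Figure D3:**
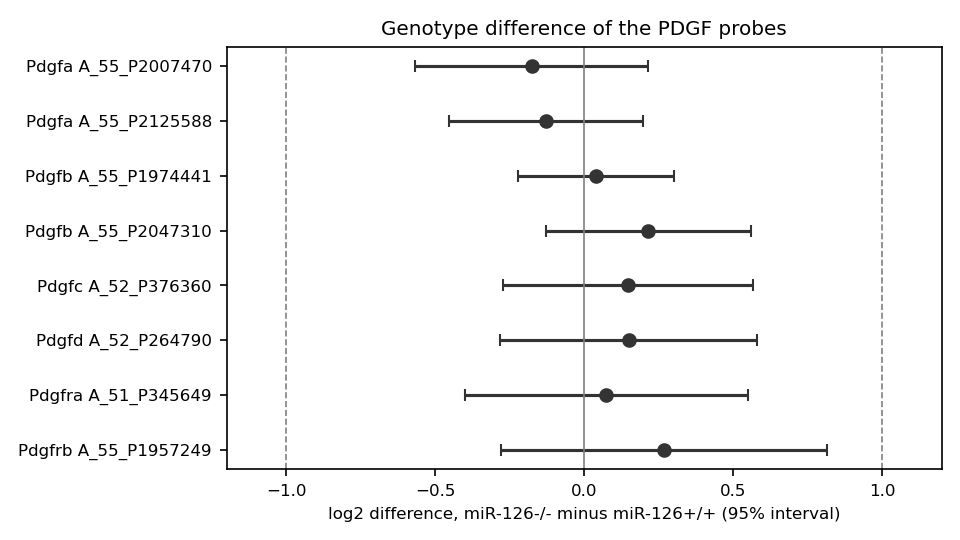
Log2 difference, miR-126-/- minus miR-126+/+ (horizontal axis), for the 8 PDGF probes, with points for the fitted difference and bars for the 95% interval from limma (n = 4 mice each). All intervals include 0 and stay between the dashed lines, which mark 2-fold changes.

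The members varied between mice of a genotype about as much as other probes did. The within-genotype SD (both genotypes pooled) ran from 0.15 for the dimmer Pdgfb probe to 0.37 for Pdgfrb, where the median of all probes tested was 0.23. Mouse miR-126+/+ 2 was the lowest of its genotype for 8 of 8 PDGF probes, as it was for 31.9% of all probes tested. Mouse miR-126+/+ 3 was the highest of its genotype for 5 of the 8 (38.3% of all probes tested), and these were the probes of Pdgfa, Pdgfb and Pdgfc. Among miR-126-/- mice the lowest value was spread over mice 1, 3 and 4 (2, 4 and 2 probes). This pattern was noticed after the values were seen and has no test.

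Array miR-126+/+ 2 also had the highest level of skeletal muscle markers, 2.80 (mean of the list's log2 signals, each centred over the 8 arrays), followed by miR-126-/- 1 at 2.64. The other 6 arrays ran from -1.78 to 0.34. With the skeletal muscle list level as a covariate the differences were 0.27 for Pdgfrb, 0.08 for Pdgfra, 0.22 and 0.04 for the brighter and dimmer Pdgfb probes, -0.17 and -0.13 for the Pdgfa probes and 0.16 for both Pdgfc and Pdgfd, close to those without it. Without both of these arrays, a choice made after seeing the data, the difference was 0.12 for Pdgfrb, 0.0066 for Pdgfra, 0.15 and -0.029 for the brighter and dimmer Pdgfb probes and -0.11 and -0.20 for the Pdgfa probes. Pdgfc then gave 0.12 and Pdgfd 0.085. In limma 0 of the 8 PDGF probes passed in either setting (0 at an unadjusted p under 0.05). The part of skeletal muscle RNA in the level of mouse miR-126+/+ 2 was not tested.

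Genes that prepare or bind PDGF ligands were listed as 12 genes, of which A2m was not tested. By the brightest probe of each gene, 0 of 11 passed in limma, 2 had an unadjusted p under 0.05, 5 lay above and 6 below 0, and the median difference was -0.03 (all 23802 genes tested: 48.9% higher, median -0.0048). By brightest probe, 0.113% of all genes passed with adjustment over the 23802 genes, and 10.2% had an unadjusted p under 0.05. Counts of listed genes that passed use the adjustment over all 32430 probes instead. The tissue plasminogen activator gene Plat, whose product cleaves PDGF-C, gave -0.10 ± 0.17. The urokinase gene Plau, whose product cleaves PDGF-D, gave -0.12 ± 0.38, and the proprotein convertase gene Furin, which acts on PDGF-A and PDGF-B, gave 0.0040 ± 0.15 (differences ± SE, n = 4 each). The convertase gene Pcsk6 gave 0.78 ± 0.23 (adjusted p = 0.305 in limma over all probes), with miR-126-/- values from 2.11 to 3.13 and miR-126+/+ values from 1.51 to 1.96 that did not overlap. Sparc, a matrix protein that binds PDGF-B, gave -0.35 ± 0.14 (limma adjusted p = 0.468), and its second probe gave 0.48 ± 0.70. The co-receptor gene Nrp1 gave 0.21 ± 0.17.

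Adaptors and effectors of the PDGF receptors had 24 genes tested. In limma 0 passed, 1 had an unadjusted p under 0.05, 9 lay above and 15 below 0, and their median was -0.01. The adaptor gene Nck2 gave -0.31 ± 0.10 (limma adjusted p = 0.345), with genotypes that did not overlap. Nck2, like Pcsk6 above and Ptpn12 below, was named for its small p, so non-overlap is no separate result for these genes. Genotypes did not overlap for 6.05% of all probes tested. The kinase gene Src gave -0.36 ± 0.17 (limma adjusted p = 0.548).

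Genes that dampen PDGF receptor signalling, such as tyrosine phosphatases and ubiquitin ligases of the Cbl family, had 12 tested. In limma 0 passed, 2 had an unadjusted p under 0.05, 3 lay above and 9 below 0, and their median was -0.18. Ptpn12 gave -0.30 ± 0.09 (limma adjusted p = 0.313), and its miR-126-/- values, 0.53 to 0.66, lay below the miR-126+/+ values of 0.82 to 1.06. Ptpn1, whose product dephosphorylates PDGF receptors, gave -0.39 ± 0.14 (limma adjusted p = 0.406), and its second probe gave -0.26 ± 0.21. The spot of Ptprk lay in the dim area of array miR-126-/- 4, and without this gene the median over 11 genes was -0.16. The list level, the mean of its log2 signals centred over the 8 arrays, was lowest on that array at -0.33 and highest in mouse miR-126+/+ 3 at 0.33. Without Ptprk array miR-126-/- 4 stood at 0.037 and mouse miR-126+/+ 3 at 0.28, and the genotypes overlapped (-0.17 to 0.037 in miR-126-/- and -0.067 to 0.28 in miR-126+/+ arteries).

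Defining markers of the cells that make or receive PDGFs were measurable on all arrays. The smooth muscle genes Acta2 (6.95 to 7.69 in miR-126-/- and 7.11 to 7.37 in miR-126+/+ arteries) and Myh11 (2.98 to 4.03 and 2.73 to 3.68) were well above background on all 8 arrays, as were the endothelial gene Pecam1 (1.34 to 1.80 and 1.37 to 1.64) and the platelet gene Pf4 (4.95 to 5.73 and 5.26 to 5.64). Pf4 alone does not stand for the platelet list. Over the 8 arrays Ppbp ran from -0.37 to 0.77, and Itga2b, Gp9, Gp1bb, Treml1 and Clec1b were below 0 on every array. Gp1ba, Gp5 and Gp6 were not tested. In limma 0 of the genes on the marker lists passed. An unadjusted p under 0.05 was found for 2 mural, 2 fibroblast, 3 endothelial and 11 adipocyte genes and for 0 genes of each other marker list. Mural cell markers, which include those of pericytes, had 11 of 14 genes higher and a median difference of 0.21, with list levels of -0.30 to 0.46 in miR-126-/- and -0.23 to 0.09 in miR-126+/+ arteries, and Rgs5 gave 0.24 ± 0.12. The lowest of these levels was that of array miR-126-/- 4, where the spot of Kcnj8, named here after its values were seen, lay in the dim area. Without Kcnj8 that array stood at 0.18, and the levels over 13 genes were -0.072 to 0.41 in miR-126-/- and -0.30 to -0.019 in miR-126+/+ arteries, with 11 of 13 genes higher and a median of 0.21. Mouse miR-126-/- 2, highest for Pdgfrb, was also highest for the mural list at 0.46 and for the endothelial list at 0.30. Mouse miR-126-/- 4 was next highest for the mural list without Kcnj8 at 0.18, but lowest of its genotype for Pdgfrb at 3.42. These orders were noticed after the values were seen and were not tested. Fibroblast markers had 7 of 14 higher and a median of 0.0015, with list levels of -0.09 to 0.09 and -0.26 to 0.11. The matrix gene Dcn gave -0.84 ± 0.19 (limma adjusted p = 0.215), with genotypes that did not overlap.

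Among the sources of PDGF ligands, endothelial markers had 11 of 12 genes higher (median 0.23, list levels -0.08 to 0.30 in miR-126-/- and -0.25 to -0.02 in miR-126+/+ arteries). Platelet markers had 1 of 7 tested genes higher (median -0.12, levels -0.21 to 0.19 and -0.16 to 0.42; Gp1ba, Gp5 and Gp6 were not tested). Macrophage markers had 6 of 12 higher (median -0.0037, levels -0.21 to 0.33 and -0.06 to 0.23), with Cd68 at -0.32 ± 0.16. The spot of C1qc lay in the dim area of array miR-126-/- 4, and without this gene 5 of 11 were higher (median -0.015). Adipocyte markers had 12 of 12 higher, with a median of 1.28 (levels 0.12 to 1.03 and -1.25 to 0.19), and Adipoq gave 1.21 ± 0.46. Skeletal muscle markers had 7 of 11 tested genes higher (median 0.16; Mylpf was not tested), with Acta1 at 0.22 ± 1.14, and nerve markers had 4 of 10 higher (median -0.11). With the adipocyte list level as a covariate, 0 of the 8 PDGF probes passed in limma (0 at an unadjusted p under 0.05), and the Pdgfrb difference was 0.25. That level nearly separates the genotypes, so this fit had little power to find a genotype difference. The SE for Pdgfrb was 0.43 in it, against 0.24 without the covariate.

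**Figure D4:**
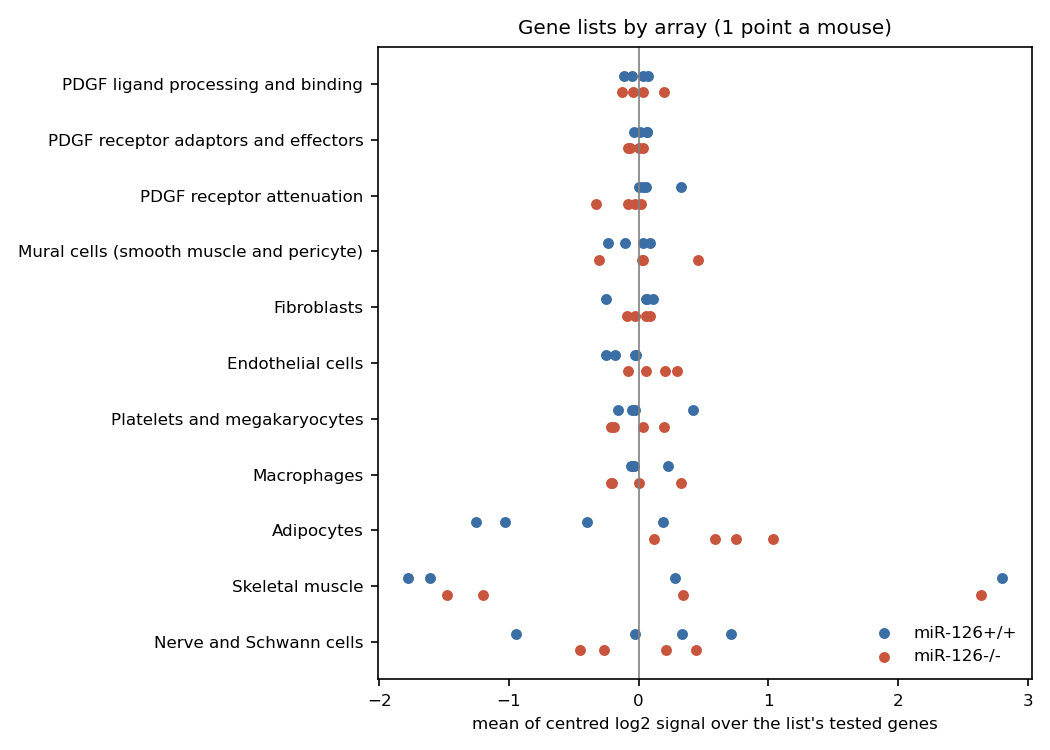
Level of each gene list (horizontal axis, mean of log2 signals centred over the 8 arrays) with 1 point per mouse and genotype by colour. The adipocyte list has its 4 miR-126-/- mice at 0.12 to 1.03 and its miR-126+/+ mice at -1.25 to 0.19, the skeletal muscle list has 1 mouse of each genotype above 2.6, and the receptor attenuation list runs from -0.33 (miR-126-/- mouse 4) to 0.33 (miR-126+/+ mouse 3). The attenuation, mural and macrophage levels of miR-126-/- mouse 4 each include a spot in its dim area.

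The genes whose signal over the 8 arrays was most like that of a member were found by Pearson's r between brightest probes, as a description with no test; all genes share the 8 arrays, and among 23802 genes high values arise easily. For Pdgfa these were the ribosomal protein gene Rpl17 (r = 0.97, Spearman's rho = 0.90) and the ubiquitin ligase gene Smurf2 (r = 0.97, rho = 0.81). For Pdgfb they were the cartilage collagen gene Col9a1 (r = 0.98, rho = 0.98) and Swap70 (r = 0.96, rho = 0.98). For Pdgfc they were Nanog (r = 0.99, rho = 0.98) and Btn1a1 (r = 0.98, rho = 0.98). For Pdgfd they were Psors1c2 (r = 0.98, rho = 0.95) and the elastic fibre gene Fbln5 (r = 0.96, rho = 0.93). Col9a1 (-6.94 to -4.34 over the 8 arrays) and Psors1c2 (-5.52 to -4.26) were dim, so their likeness rests on low signals. For Pdgfra they were Mir22hg, which hosts miR-22 (r = 0.99, rho = 0.98), and Zfand2b (r = 0.97, rho = 0.95). For Pdgfrb they were the complexin gene Cplx2 (r = 0.96, rho = 0.90) and Lime1 (r = 0.96, rho = 0.93). Between 21 and 98 genes with a symbol reached an r over 0.9 with a given member.

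Over the whole series, 55.9% to 61.5% of probes were well above background, the arrays' 75th percentiles ran from 619.7 to 864.6 intensity units, and 0 noncontrol spots were saturated. The arrays shared 1 slide and 1 scan. The miR-126+/+ arrays occupied its row 1 and the miR-126-/- arrays its row 2, and the effects of genotype and of slide row cannot be told apart. In each row, mice 1 to 4 stood in columns 1 to 4. Egfl7, the host gene of miR-126, stood at 6.26 ± 0.18 in miR-126-/- and 5.78 ± 0.17 in miR-126+/+ arteries (SD, n = 4 each; limma adjusted p = 0.271), and Apoe, disrupted in both groups, at 2.38 ± 0.28 and 1.76 ± 0.53. The lowest miR-126-/- value of Egfl7, 6.07, was above its highest miR-126+/+ value, 5.90. The array names used here include no miR-126 probe, and neither gene's probe is known to lie in a disrupted part, so these values check nothing about the labels.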

How the data were processed

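RNA of 8 injured carotid arteries (100 ng each) was labelled in 1 colour, Cy3, for Agilent mouse arrays, per the labels' protocols. The authors' deposited files hold intensity values from Agilent Feature Extraction 10.7.3.1, background-subtracted and detrended per the file headers and not scaled between arrays. Probe positions are on mm9. The value table that the authors deposited repeats these intensity values, with a median log2 difference of 0 from the scanner signal on each array, column medians of 41.7 to 57.5 and no scaling between arrays.

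Control spots and outlier spots (146 to 216 per array) were left out. Log2 signals minus the log2 of the array's 75th percentile over noncontrol spots were averaged over spots of a probe. Probes well above background on at least 3 of 4 arrays of a genotype, with a value on all 8, were tested two-sided in R 4.3.3 by limma 3.58.1 (eBayes after lmFit on genotype alone, residual df 6), with Benjamini-Hochberg adjustment over 32430 probes. The fit was tested on simulated data. Probes other than the members were named through RefSeq accessions (GRCm38.p6, names only) where these matched (47.4% of probes).

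Named are all member probes, Egfl7, Apoe, defining markers, 5 genes of ligand handling (Plat, Plau, Furin, Sparc, Nrp1), the 2 genes of each pathway list with the smallest unadjusted p, and the 2 genes most like each member. Ptprk, Kcnj8 and C1qc were named after their values were seen. The members and lists were chosen with earlier results of these data known. The alternatives were other background corrections, scalings, filters, probe summaries, variance models, covariates, a replicate block, arrays left out and spots left out.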

Additional observations from a re-analysis of the deposited data

How the results depend on the processing

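In limma, 0 of the 8 PDGF probes passed in the main setting, and 0 of the PDGF probes or genes tested passed under any of the 23 alternatives (2 of which tested the 6 genes by their brightest probe or the mean of their probes), where adjusted p-values ran from 0.424 upward. The count of all probes called, 13, was 39 with normexp, 7 among probes well above background on all 8 arrays, 27 with the brightest probe per gene, 8 with an intensity trend, 63 with array weights and 1 with the skeletal muscle level in the fit. It was 0 with the adipocyte level in the fit (1550 probes at an unadjusted p under 0.05 in limma) and 0 without both arrays richest in skeletal muscle genes (2651 such probes). Leaving out single arrays gave 0 to 52 (0 without miR-126-/- 2, with 2510 such probes, and 52 without miR-126+/+ 4). With the replicate number as a block it was 0 (2881 such probes), and the block changed no PDGF call. Same-numbered arrays stood in the same slide column, so this block is also one of slide column. The labels name no pairing of mice by number. Deviations of same-numbered mice correlated at 0.18, -0.29, -0.04 and -0.00022.

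The direction turned for 3 of the 8 PDGF probes. With the adipocyte covariate, which nearly separates the genotypes, the second Pdgfa probe went to 0.17 ± 0.21 and Pdgfra to -0.073 ± 0.36 (SE). Leaving out single arrays gave -0.017 to 0.10 for the dimmer Pdgfb probe and -0.029 to 0.22 for Pdgfra, and without both muscle-rich arrays the dimmer Pdgfb probe gave -0.029. The cause was not tested. The other 5 probes kept their direction under all alternatives run, but leaving out 1 array moved the size of each of the 8 by over 1.5 times. Pdgfrb ran from 0.11 (without miR-126+/+ 2) to 0.44 (array weights). Leaving out single arrays gave -0.25 (without miR-126+/+ 2) to -0.035 (without miR-126-/- 1) for the first Pdgfa probe, -0.22 (without miR-126+/+ 2) to -0.011 (without miR-126+/+ 3) for the second, 0.12 (without miR-126+/+ 2) to 0.30 (without miR-126+/+ 3) for the brighter Pdgfb probe, 0.041 to 0.29 for Pdgfc without the same 2 arrays in turn, and 0.053 (without miR-126+/+ 2) to 0.29 (without miR-126-/- 3) for Pdgfd, which gave 0.02 with normexp.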
